A study of Mus musculus with 4 samples.

Results

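Collagen genes were taken as the protein-coding RefSeq genes on chromosomes 1 to 19 of GRCm38, the assembly that mm10 names, whose symbol is Col, a number, the letter a and a number. This rule gave 42 of 20661 protein-coding genes: 11 fibrillar collagens, 4 chains of type IV and 27 others. Open chromatin was mapped by ATAC-seq, an assay that tags accessible DNA with a transposase, with 1 library from each of 4 mouse cell populations. Mouse embryonic fibroblasts (MEF) and induced pluripotent stem cells (iPSC) both carry A12 (Mbd3 flox/-) as strain and transgene label. The sorted population called the intermediate here has the strain label B6/129 and a tdTomato reporter at Rosa26. It also carries a Col1a-OSKM transgene, which encodes Oct4, Sox2, Klf4 and Myc, and the labels call its source Nanog-CreER reporter fibroblasts. It received doxycycline and 4-hydroxytamoxifen between days 1 and 9, together with 0.5 µM of a JAK1 inhibitor, and the cells positive for tdTomato were sorted. Its title gives day 9 and its source field day 6. The title also gives neural stem cells, and not iPSC, as the goal of this conversion. Whether the intermediate lies on a path to iPSC was not tested. The embryonic stem cells (ESC) are v6.5, with no transgene label. Strain labels thus match for MEF and iPSC only, and in the other comparisons strain and cell state cannot be told apart. The transgene label names Col1a, so values at Col1a1 in the intermediate may come from an engineered locus. Where 4 values follow each other without names, they stand in the order MEF, intermediate, iPSC and ESC.

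Collagens are trimeric proteins of the extracellular matrix. Fibrillar collagens (types I, II, III, V, XI, XXIV and XXVII) pack into the fibrils that fibroblasts, bone and cartilage cells lay down, and type I with some type III and V is the main product of fibroblasts. Type IV chains form the sheet-like network of basement membranes, on which epithelial, endothelial and early embryonic cells sit. The others include collagens that decorate fibrils, the beaded filaments of type VI, network and anchoring collagens, transmembrane collagens and the multiplexins of the basement membrane zone. Accessible sites at a gene's start and within or beside its body often mark promoters and enhancers, though a peak alone does not show which gene it acts on.

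The promoters that the results below turn on are shown here, from 250 bases before to 50 after the RefSeq start site in GRCm38.p6, 5′ to 3′ on the strand of the gene. Capitals mark matches on either strand to TATAAA (the core of a TATA box), to CCAAT (the CCAAT box bound by NF-Y), to GGGCGG (a GC box bound by the Sp family) and to TGANTCA (bound by AP-1 factors). A match on the other strand appears as its reverse complement, and matches may overlap. The fibrillar gene Col3a1 (chr1:45311288-45311587, plus strand) and the type VI gene Col6a3 (chr1:90843922-90844221, minus strand) are printed because a peak lay over these windows in MEF alone. Col1a2 (chr6:4505368-4505667, plus strand) and Col5a1 (chr2:27886175-27886474, plus strand) had a peak there in every library.
Col3a1: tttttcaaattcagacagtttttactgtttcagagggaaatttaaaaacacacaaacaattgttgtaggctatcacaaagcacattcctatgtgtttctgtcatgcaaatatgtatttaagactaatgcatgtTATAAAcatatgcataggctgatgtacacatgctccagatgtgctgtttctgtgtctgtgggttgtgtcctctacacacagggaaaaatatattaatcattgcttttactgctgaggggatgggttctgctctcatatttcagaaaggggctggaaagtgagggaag
Col6a3: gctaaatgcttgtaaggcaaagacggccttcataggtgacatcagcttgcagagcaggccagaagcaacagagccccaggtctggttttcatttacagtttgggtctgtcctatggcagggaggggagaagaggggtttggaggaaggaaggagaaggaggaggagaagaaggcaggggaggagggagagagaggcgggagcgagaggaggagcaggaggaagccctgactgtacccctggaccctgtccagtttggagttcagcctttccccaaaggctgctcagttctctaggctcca
Col1a2: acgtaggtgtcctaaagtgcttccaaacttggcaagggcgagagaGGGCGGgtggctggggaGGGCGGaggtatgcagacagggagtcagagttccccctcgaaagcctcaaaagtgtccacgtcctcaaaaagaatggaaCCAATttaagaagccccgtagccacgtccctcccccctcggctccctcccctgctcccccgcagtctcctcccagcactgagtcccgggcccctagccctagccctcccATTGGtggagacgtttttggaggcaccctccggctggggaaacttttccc
Col5a1: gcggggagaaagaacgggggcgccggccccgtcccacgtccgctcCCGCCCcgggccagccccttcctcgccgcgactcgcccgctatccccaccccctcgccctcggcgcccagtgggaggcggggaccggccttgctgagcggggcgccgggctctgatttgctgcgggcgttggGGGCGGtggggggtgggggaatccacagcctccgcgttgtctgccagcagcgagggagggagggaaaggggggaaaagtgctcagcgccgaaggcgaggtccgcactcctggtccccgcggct
The next 3 show the divergent pair Col4a1 (chr8:11312777-11313076, minus strand) and Col4a2 (chr8:11312555-11312854, plus strand), whose start sites lie 21 bp apart and whose windows share 78 bp, and Col24a1 (chr3:145292222-145292521, plus strand), the collagen gene with an end peak in every library but MEF.
Col4a1: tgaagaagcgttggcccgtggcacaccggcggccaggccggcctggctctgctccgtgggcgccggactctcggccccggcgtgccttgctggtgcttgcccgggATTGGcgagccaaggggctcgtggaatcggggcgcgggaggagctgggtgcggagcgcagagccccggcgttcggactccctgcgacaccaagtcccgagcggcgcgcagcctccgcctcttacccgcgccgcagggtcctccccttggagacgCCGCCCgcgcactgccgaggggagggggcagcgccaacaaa
Col4a2: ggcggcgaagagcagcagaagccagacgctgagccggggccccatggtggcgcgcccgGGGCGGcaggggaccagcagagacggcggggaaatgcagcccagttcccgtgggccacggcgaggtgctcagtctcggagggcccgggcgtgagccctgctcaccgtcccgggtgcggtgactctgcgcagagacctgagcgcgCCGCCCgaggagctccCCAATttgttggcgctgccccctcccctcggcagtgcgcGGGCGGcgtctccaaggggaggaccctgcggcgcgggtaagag
Col24a1: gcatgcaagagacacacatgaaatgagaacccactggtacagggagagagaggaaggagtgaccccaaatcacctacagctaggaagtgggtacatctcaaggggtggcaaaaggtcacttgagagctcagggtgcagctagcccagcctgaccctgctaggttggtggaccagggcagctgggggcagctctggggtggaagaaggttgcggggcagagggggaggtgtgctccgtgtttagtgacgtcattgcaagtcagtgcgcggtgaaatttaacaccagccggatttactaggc

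These promoters differ in base composition. The Col3a1 window holds 0 CpG dinucleotides at 37.7% GC, and that of Col6a3 holds 3 at 56.3% GC. Col1a2 has 13 at 61.0%, Col5a1 34 at 75.0%, Col4a1 37 at 74.0%, Col4a2 33 at 73.7% and Col24a1 6 at 56.3%. Over the 36 promoter windows found for 33 of the 42 collagens the median was 12 CpG, against 14 over 20084 promoters of protein-coding genes. The Col3a1 and Col6a3 windows thus lie below the median of all promoters and those of the type IV pair well above it. Those of Col1a2, with a peak in every library, and Col24a1, with none in MEF, also lie below it. TATAAA was found in 5 of the 36 windows (12.7% of all promoters hold it), CCAAT in 12 (38.1% of all), GGGCGG in 21 (47% of all) and TGANTCA in 1, that of Col6a1 (7.06% of all). A match is a description of the sequence and not a binding site, and no match says only that these letters are not in this window. A peak lay over 26 of the 36 windows in MEF, 17 in intermediate cells, 20 in iPSC and 25 in ESC, or 72.2%, 47.2%, 55.6% and 69.4%, where 60.6%, 58.3%, 61.8% and 64% of all promoters had one. Among the 16 windows with CpG counts at or above the median of all promoters these numbers were 14, 10, 13 and 15. Among the 20 below it they were 12, 7, 7 and 10. Of all promoters in the CpG-rich set 92.5%, 90.0%, 94.3% and 97.8% had a peak in the 4 libraries, and of those in the CpG-poor set 28.5%, 26.5%, 29.1% and 29.9%.

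MEF had far more listed peaks at collagens than any of the other populations. Over the gene bodies and the 20 kb on each side, which span 6.45 Mb, 814 peaks were listed in MEF, 327 in intermediate cells, 305 in iPSC and 354 in ESC. That is 0.525% of all MEF peaks on these chromosomes and 0.25%, 0.237% and 0.281% of the others. The collagen count relative to MEF was thus 0.402 in intermediate cells, 0.375 in iPSC and 0.435 in ESC, while the counts over all protein-coding genes stood at 0.849, 0.755 and 0.768. Bases covered by peaks, which do not depend on how a stretch was divided into sub-peaks, gave the same order of size: 371 kb in MEF, 163 kb in intermediate cells, 161 kb in iPSC and 170 kb in ESC, or 0.438, 0.433 and 0.459 of MEF. For all protein-coding genes the covered bases were 0.877, 0.864 and 0.857 of MEF. With 1 library per group there is no replicate check and no p-value, and a difference between cells cannot be told apart from one between libraries. Fewer cells with an open site and less opening per cell cannot be told apart either.

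Gene by gene, 37 of 42 collagens had fewer peaks in the intermediate than in MEF, 34 in iPSC and 33 in ESC. Over all protein-coding genes 48.1%, 56.4% and 52.1% did. A gene was called lower or higher where the library with more peaks had at least 5 and at least 2 times as many as the other. By that rule 27 collagens were lower in the intermediate than in MEF, 64.3%, where 17.3% of all protein-coding genes were. In iPSC 24 were lower (background 27.1%) and in ESC 23 (background 19.9%). None of the collagens was called higher in the intermediate (background 9.33%) or in iPSC (background 8.21%), and 1, Col9a2, was in ESC (background 8.4%). These comparisons share the MEF library. Collagens are long genes, with a median of 110 kb against 17.5 kb for all, and can reach 5 peaks more easily. Among genes with a mean of at least 5 peaks over the 4 libraries the background was 20.3%, 34.7% and 24.2%, and 24, 22 and 20 of the 37 collagens in that set were called lower. That mean includes MEF, so a gene can enter the set through its MEF count alone, and the set is not matched for length. The part of gene length in these calls was therefore not tested. Inside the gene bodies alone 29, 26 and 24 collagens were lower (background 12.6%, 15.2% and 14.4%), and 0, 1 and 1 were higher (background 6.88%, 5.43% and 5.34%). Any larger count than in MEF was seen at 3, 5 and 7 collagens (background 35.2%, 30.3% and 33.5%). After joining sub-peaks at most 10 bp apart the share of collagens called lower was 45.2% in the intermediate (10.8% of all genes), 45.2% in iPSC (13.2%) and 42.9% in ESC (11.4%).

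The intermediate was also set directly against ESC. By the same rule 7 collagens were lower in the intermediate than in ESC (background 9.99%): Col1a2, Col2a1, Col6a4, Col9a2, Col13a1, Col14a1 and Col26a1. Col1a1, Col6a3, Col15a1 and Col17a1, 4 in all, were higher (background 12.2%). An end peak listed in ESC was missing in the intermediate at 11 collagens (background 8.07%) and the reverse held at 2, Col6a1 and Col11a2 (background 3.25%).

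**Figure D1:**
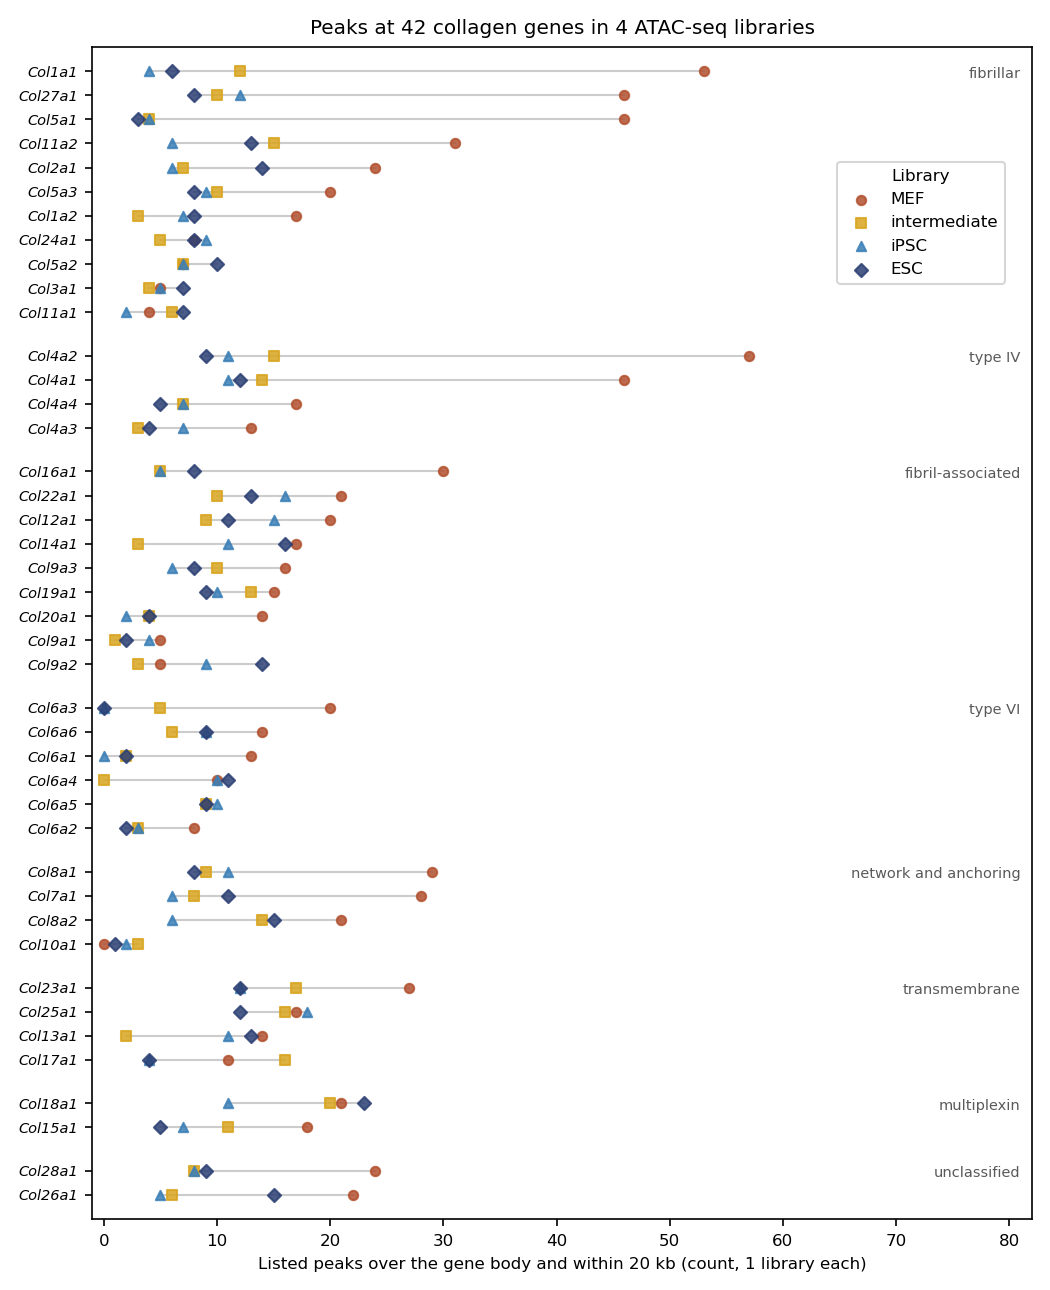
Listed peaks over the gene body and within 20 kb (x axis, count) for each of the 42 collagen genes (rows, grouped by class), with 1 point per library and a grey line from the lowest to the highest. MEF is the rightmost point for most genes, with 57 peaks at Col4a2 and 53 at Col1a1, while another library has the most peaks at some genes, such as Col17a1 (16 in the intermediate) and Col9a2 (14 in ESC).

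Among the fibrillar genes, Col1a1, Col5a1 and Col27a1 had the largest MEF counts. Col1a1, which encodes the main chain of type I collagen (chromosome 11, 94936224 to 94953042), had 53 peaks in MEF, 12 in intermediate cells, 4 in iPSC and 6 in ESC. In MEF these covered 44.1% of its window, against 11.9%, 3.68% and 6.92%. Many were adjacent sub-peaks: joining them left 12, 5, 2 and 3. Its tallest MEF peak (height 168, higher than 97.1% of MEF peaks) lay 1.99 kb outside the lower-coordinate end of the gene, on chromosome 11 from 94933431 to 94934231, and no other library listed a peak there. Another of height 103 covered that end itself, from 94935741 to 94936641, again in MEF alone. The stretch next to it inside the gene, from 94936651 to 94938351, had heights of 62 in MEF, 27 in the intermediate and 51 in ESC. The opposite end had its tallest peak in the intermediate. A region there, from 94951941 to 94953381, had heights of 37 in MEF, 138 in the intermediate and 45 in ESC with none in iPSC, and the next stretch, up to 94954431, had a peak of height 38 in the intermediate alone. Since the transgene label of the intermediate names this locus, the part of the transgene in these peaks was not tested. Heights are unscaled between libraries and serve here to show where the tall peaks are.

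Col1a2, the partner chain of type I (chromosome 6, 4505618 to 4541543), had 17 peaks in MEF, 3 in intermediate cells, 7 in iPSC and 8 in ESC. Its promoter, printed above, was listed in all 4, with heights of 128, 33, 169 and 48. The fibril-nucleating chain Col5a1 (chromosome 2, 27886381 to 28039510) had 46 peaks in MEF and 4, 4 and 3 in the others. After joining the counts were 17, 2, 1 and 1. Its covered bases were 19.4 kb in MEF and 1.44, 1.69 and 1.64 kb in the others. The promoter was again listed in every library (heights 141, 29, 84 and 158). So at Col5a1 the sites that set MEF apart lay outside the start region shared by all 4, with 40 of its 42 regions listed in MEF alone. Some of them adjoined that region, in a run of MEF peaks reaching 3.65 kb into the gene. Col27a1, a fibrillar collagen of cartilage, had 46 peaks in MEF and 10, 12 and 8 in the others, with 36 of its 39 MEF regions in MEF alone. Its start region was listed in all 4 (48, 58, 158 and 76).

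**Figure D2:**
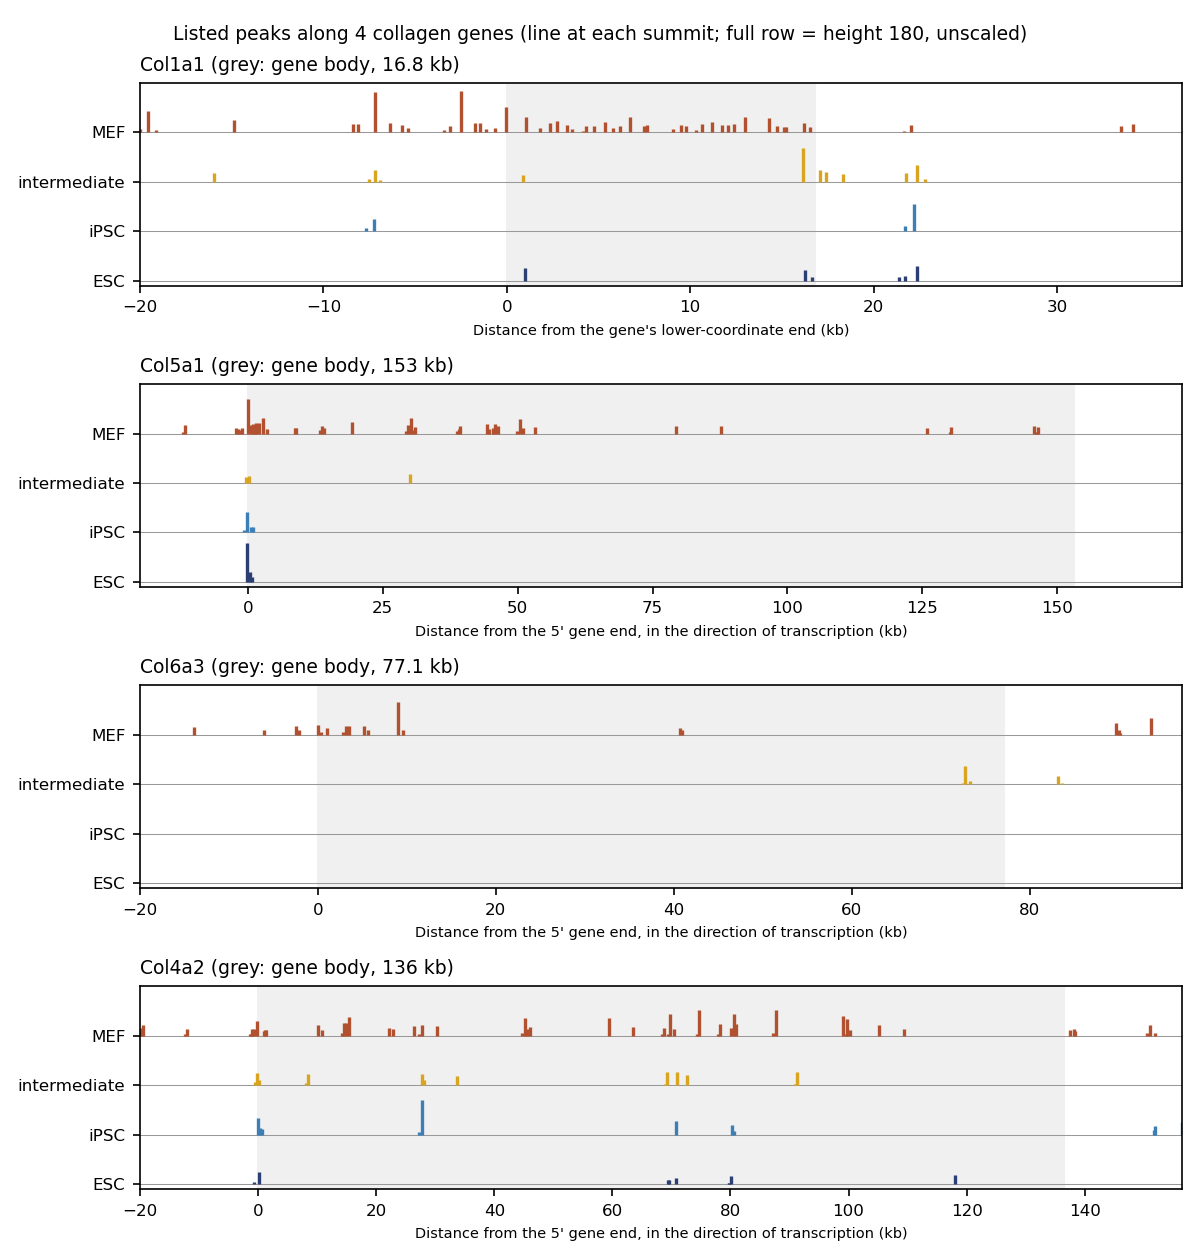
Summits of listed peaks along Col1a1, Col5a1, Col6a3 and Col4a2, with 1 row per library, distance in kb on the x axis and line height proportional to unscaled peak height; grey marks the gene body. MEF peaks run along the whole of Col1a1, those of Col5a1 are sparse away from its start side, and the peaks at the start of Col5a1 and Col4a2 recur in every library.

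Col3a1, which encodes type III collagen (chromosome 1, 45311538 to 45349706), did not follow this pattern in its count. It had 5 peaks in MEF, 4 in intermediate cells, 5 in iPSC and 7 in ESC. The sites were different ones: none of its 5 MEF regions was listed in another library. Its start had a peak of height 48 in MEF alone (45311241 to 45311781). A region beyond the gene, between Col3a1 and Col5a2, was listed in the other 3 libraries only, from 45359191 to 45360280, with heights of 62 in intermediate cells, 249 in iPSC and 121 in ESC. Col5a2, the second chain of type V collagen, lies 24.6 kb from Col3a1, so that this region falls in both windows. It had 7, 7, 7 and 10 peaks in MEF, the intermediate, iPSC and ESC, with its higher-coordinate end listed in all 4 (heights 79, 32, 71 and 56).

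The remaining fibrillar genes are known mainly from cartilage, or are minor fibril chains. Col2a1, the main collagen of cartilage, had 24 peaks in MEF and 7, 6 and 14 in the intermediate, iPSC and ESC. Its tallest MEF peak, inside the gene on chromosome 15 from 97992001 to 97993970, was listed in all 4 libraries (94, 126, 85 and 99). Col11a2, a cartilage fibril chain, had 31, 15, 6 and 13 peaks, but 4 other protein-coding genes reach into its window, and inside its body the counts were 7, 2, 0 and 0. For Col5a3, a minor type V chain, the counts were 20, 10, 9 and 8. At Col11a1, which shares fibrils with Col2a1 in cartilage, MEF had only 4 peaks, against 6, 2 and 7. Its start carried the tallest iPSC peak of any collagen window, with heights of 158, 126, 601 and 267. Col24a1 had 8, 5, 9 and 8 peaks, and its start had no listed peak in MEF and heights of 29, 145 and 48 in the intermediate, iPSC and ESC. Thus 7 of the 11 fibrillar genes were called lower in the intermediate than in MEF, and Col3a1, Col5a2, Col11a1 and Col24a1 were not.

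All 4 autosomal type IV genes were called lower in the intermediate and in ESC than in MEF, and 3 of them in iPSC. Col4a1 and Col4a2, the chains found in nearly all basement membranes, lie head to head on chromosome 8 with bodies that overlap by 85 bp, so 19 of the MEF peaks fall in both windows. Col4a1 (11198423 to 11312889) had 46 peaks in MEF, 14 in intermediate cells, 11 in iPSC and 12 in ESC. Col4a2 (11312805 to 11449287) had 57, 15, 11 and 9, the most MEF peaks of any collagen. Their shared promoter region, from 11311661 to 11313861, was listed in all 4 libraries with heights of 58, 50, 68 and 51. The other sites in these windows differed more: 43 of the 48 MEF regions in the Col4a2 window and 37 of 43 in that of Col4a1 were in MEF alone. One of these at Col4a2, from 11387091 to 11387870, had a height of 104, which no MEF peak in that window exceeded. The intermediate also listed sites of its own, with 7 regions in the Col4a2 window that no other library had. Its tallest peak at Col4a1, from 11226781 to 11228140, had heights of 105 there, 73 in iPSC and 30 in ESC and none in MEF.

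Col4a3 and Col4a4, chains of the kidney, lung and inner ear basement membranes, form a second head-to-head pair on chromosome 1. Col4a3 had 13 peaks in MEF, 3 in intermediate cells, 7 in iPSC and 4 in ESC, and Col4a4 had 17, 7, 7 and 5. The region over the start of Col4a4 and the adjoining end of Col4a3, from 82586191 to 82587750, had heights of 28 in MEF, 134 in iPSC and 47 in ESC, and no listed peak in the intermediate. The 2 pairs thus differ where they meet, and the intermediate listed a peak there for Col4a1 and Col4a2 only.

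Type VI collagen forms beaded filaments around cells, and 2 of its genes, Col6a1 and Col6a3, had 0 peaks in iPSC. Col6a3 (chromosome 1, 90766860 to 90844001) had 20 peaks in MEF, 5 in the intermediate and 0 in both iPSC and ESC. Its 5 intermediate regions were listed in no other library. The tallest MEF peak lay 8.58 kb inside the gene from its start, from 90834701 to 90835390, with a height of 132. Col6a1 had 13, 2, 0 and 2 peaks in MEF, the intermediate, iPSC and ESC, and its start region was listed in MEF at 64 and in the intermediate at 45 only. Its partner chain Col6a2 had 8, 3, 3 and 2, with its start listed everywhere (107, 30, 60 and 81). Col6a4, Col6a5 and Col6a6 lie in a row on chromosome 9. Col6a4 had 10 peaks in MEF, 0 in intermediate cells, 10 in iPSC and 11 in ESC, Col6a5 had 9, 9, 10 and 9, and Col6a6 had 14, 6, 9 and 9. The tallest MEF peak of any collagen, higher than 99.8% of the MEF list, lay in Col6a6 from 105818811 to 105820030, with heights of 416, 101, 89 and 231.

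Of the 9 fibril-associated collagens, which bind to the surface of fibrils, 6 were called lower in the intermediate than in MEF. Col16a1 had 30 peaks in MEF, 5 in intermediate cells, 5 in iPSC and 8 in ESC, and Col12a1, expressed in tendon and other dense connective tissue, had 20, 9, 15 and 11. At Col14a1 the intermediate stood alone, with 3 peaks against 17 in MEF, 11 in iPSC and 16 in ESC. Col12a1 had a peak inside the gene (chromosome 9, 79617071 to 79618250) of height 155 in MEF, 441 in iPSC and 151 in ESC that the intermediate did not list. The largest gene of this class, Col22a1, had 21, 10, 16 and 13 peaks, Col20a1 14, 4, 2 and 4, and Col9a1 5, 1, 4 and 2. Not called were Col19a1, which lies 4.94 kb from Col9a1 (15, 13, 10 and 9), the cartilage gene Col9a3 (16, 10, 6 and 8) and Col9a2 (5, 3, 9 and 14). In all 4 libraries the tallest peak in the Col9a3 window lay within 1 kb of an end of another gene, Mrgbp.

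Network, anchoring and membrane collagens were mixed. Col8a1, a short-chain network collagen of vessels and eye, had 29 peaks in MEF and 9, 11 and 8 in the intermediate, iPSC and ESC. Col7a1, the anchoring fibril of skin, had 28, 8, 6 and 11. In the body of Col7a1 alone MEF had 10 peaks, ESC 1 and the intermediate and iPSC 0, so most of what the other libraries listed lay beside the gene. Col10a1, the collagen of hypertrophic cartilage, was the 1 member with no MEF peak in its window, and had 3, 2 and 1 in the others, all outside the 7.11 kb gene. Col17a1, a hemidesmosome protein of basal epithelium, had 11 peaks in MEF, 16 in intermediate cells and 4 in either pluripotent library. Inside its body the order was 9, 2, 0 and 1, and the tallest intermediate peak lay 15.3 kb outside the gene (height 158, in no other list). Col13a1, a transmembrane collagen of muscle and other junctions, had 14, 2, 11 and 13, again with the intermediate lowest. The neuronal collagen Col25a1 had 17, 16, 18 and 12, and Col23a1 27, 17, 12 and 12. The multiplexins Col15a1 and Col18a1, parents of the fragments restin and endostatin, had 18, 11, 7 and 5 and 21, 20, 11 and 23. Col8a2 had 21, 14, 6 and 15, Col26a1 22, 6, 5 and 15 and Col28a1 24, 8, 8 and 9.

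Set side by side per length, pooled fibrillar and pooled type IV genes had more MEF peaks than the 27 other collagens pooled, with wide differences inside each class. Fibrillar windows held 17.7 peaks per 100 kb in MEF, type IV windows 18.2 and other collagens 10.2, where all protein-coding genes had 9.12. In the intermediate the densities were 5.44, 5.62 and 4.87, against 7.74 for all genes, in iPSC 4.62, 5.13 and 4.71 against 6.88, and in ESC 5.92, 4.30 and 5.51 against 7. The 3 pooled classes thus lay between 4.30 and 5.92 outside MEF. Smaller classes within the others lay apart: the 4 network and anchoring collagens had 21.9 per 100 kb in MEF, the most of any class, and 9.54, 7.01 and 9.82 in the other libraries, and the 2 multiplexins had 13, 10.3, 6 and 9.34. Other protein-coding genes reach into the network and anchoring windows, 3 at Col7a1 and 4 at Col8a2. In gene bodies alone that class had 23.4 in MEF and 6.11, 4.07 and 5.09 in the others, where all collagens had 12, 4, 4.11 and 4.55. Single genes spread more widely still. In MEF Col4a1 and Col4a2 had 29.8 and 32.3 per 100 kb, but Col4a3 and Col4a4 had 7.42 and 9.52, below the pooled value of the other collagens. Among fibrillar genes the MEF density ran from 1.74 at Col11a1, 2.67 at Col24a1, 4.14 at Col5a2 and 6.4 at Col3a1 to 93.3 at Col1a1. After joining sub-peaks the MEF densities were 6.6 for fibrillar, 9.1 for type IV and 5.35 for other collagens, and by that measure the fibrillar class stood much closer to the others. By bases covered it stood near type IV: MEF peaks covered 7.82% of fibrillar, 8.48% of type IV and 4.69% of other collagen windows, and 4.31% for all genes. The intermediate count relative to MEF was 0.308 for fibrillar, 0.309 for type IV and 0.48 for other collagens. Joining sub-peaks brought these ratios to 0.485, 0.327 and 0.551, and bases covered gave 0.36, 0.31 and 0.513. The ratio of the fibrillar class thus ran from 0.308 to 0.485 by these 3 measures, and that of the 4 type IV genes lay between 0.309 and 0.327. With types VII, XV, XVII and XVIII, which also belong to the basement membrane zone, added to type IV, the densities were 17.7 in MEF and 8.39 in the intermediate, a ratio of 0.473, and the remaining others had 9.35 and 4.04, a ratio of 0.432. In the intermediate the contrast between type IV and the other collagens was therefore not seen for this wider class. In iPSC and ESC it was, with ratios of 0.314 and 0.367 for the wider class and 0.486 and 0.541 for the remaining others. By the 2-fold rule 7 of 11 fibrillar genes, 4 of 4 type IV genes and 16 of 27 others were lower in the intermediate, so the share of genes called was similar in the fibrillar and other classes (63.6% and 59.3%). No test was run between classes of this size with 1 library each, and the 4 type IV genes form 2 pairs that share peaks.

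**Figure D3:**
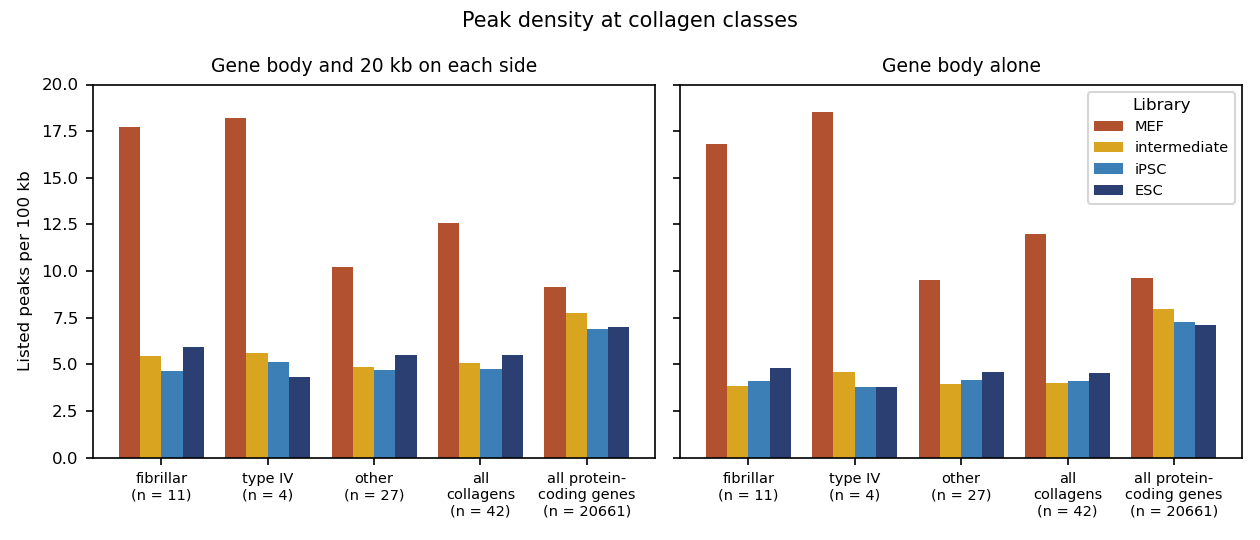
Listed peaks per 100 kb (y axis) in fibrillar, type IV and other collagens, in all collagens and in all protein-coding genes, for windows with 20 kb on each side (left) and for gene bodies alone (right), with 1 bar per library and no error since each group has 1 library. In windows, MEF reaches 17.7 and 18.2 in the fibrillar and type IV classes, and the other libraries lie at or below 5.92 in these 3 pooled classes.

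Gene ends gave another view, since they often include the promoter. An end peak is not always a promoter peak: at some genes, such as Col6a5 and Col20a1, the RefSeq start site lies more than 1 kb inside the gene. The promoter window of Col6a5 had a peak of height 73 in MEF alone, and that of Col20a1 one of height 30 in ESC alone. An end peak lay within 1 kb of either end at 33 of 42 collagens in MEF, 78.6% (Wilson 95% interval 64.1 to 88.3, counting error over genes only), where 65.5% of all protein-coding genes had one. In the intermediate 20 had one, 47.6% (33.4 to 62.3, all genes 63.3%), in iPSC 24, 57.1% (42.2 to 70.9, all genes 66.1%), and in ESC 29, 69.0% (54.0 to 80.9, all genes 68.1%). Against MEF, 14 collagens lost an end peak in the intermediate (7.77% of all genes did) and 1 gained one (5.58%). In iPSC 11 lost one (6.5%) and 2 gained one (7.1%), and in ESC 7 lost one (4.59%) and 3 gained one (7.22%). The order of the libraries depends on the 1 kb limit. Within 2.5 kb of a gene end, 36, 28, 27 and 32 collagens had a listed peak, so iPSC and not the intermediate had the fewest. Losses against MEF at that width were 13, 10 and 5 for the intermediate, iPSC and ESC. No share of all genes is given for that width, and the patterns below were taken at 1 kb.

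The 14 collagens whose MEF end peak was not listed in the intermediate fall into 3 groups. Col3a1, Col6a3, Col6a4, Col20a1 and Col26a1 had one in MEF alone, a pattern seen at 2.81% of all genes. Col7a1, Col8a2 and Col16a1 had one in MEF and ESC. Col12a1, Col14a1, Col19a1, Col4a3, Col4a4 and Col6a6 had one in MEF, iPSC and ESC and only the intermediate lacked it; 3.26% of all genes share that pattern, and 14.3% of collagens do. The MEF heights of these 14 end peaks ran from 27 at Col26a1 to 90 at Col7a1, around and above the median of 30 for the whole MEF list. Of the 11 fibrillar genes 10 had one in MEF and 10 in the intermediate, where Col3a1 lost one and Col24a1 gained one. Of the 4 type IV genes 4 had one in MEF and 2 in the intermediate, and of the 27 others 19 and 8. All 4 libraries had one at 16 collagens, 38.1%, against 54.8% of all genes, and none did at Col10a1, Col17a1, Col22a1, Col28a1, Col6a5 and Col9a1. Col11a2 and Col6a1 had one in MEF and the intermediate only, Col1a1 in all but iPSC, Col13a1 in iPSC and ESC only and Col9a3 in ESC only. The listed end also differed at some genes: Col9a2 had its start in MEF (31), iPSC (51) and ESC (27) and only the opposite end in the intermediate (36), and Col8a2 had the opposite end in MEF (35) and its start in ESC (72).

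**Figure D4:**
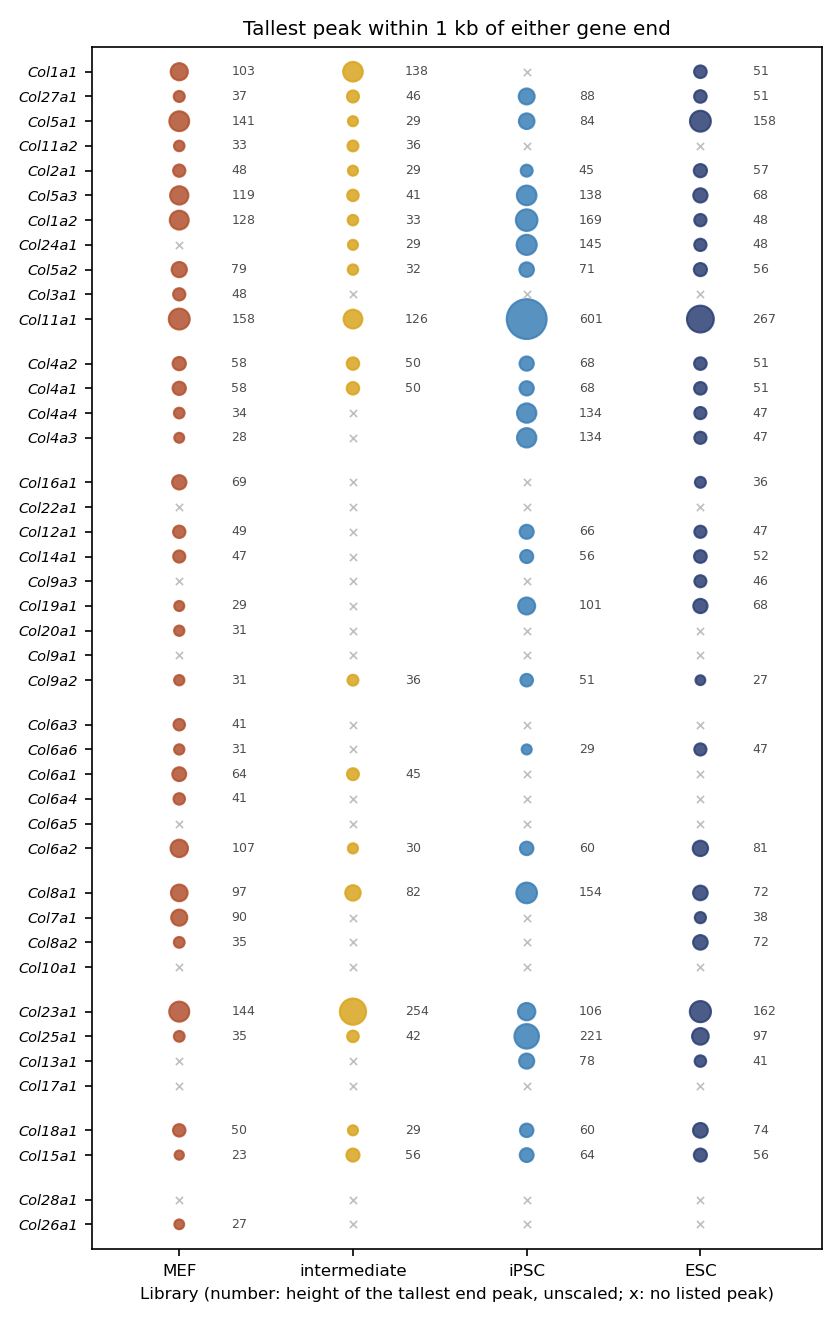
Height of the tallest listed peak within 1 kb of either end of each collagen gene (rows) in each library (columns); point area grows with the unscaled height, the number gives it, and a cross marks no listed peak. The intermediate column has 22 crosses against 9 in MEF, and the fibrillar rows at the top are filled in nearly every column.

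Merged across the libraries, the collagen windows held 999 regions, of which 54.6% were in MEF alone, against 33.0% of the regions at all protein-coding genes. The share in MEF alone was 67.7% of 260 fibrillar regions, 69.7% of 122 type IV regions and 46.0% of 617 others. Of the 672 collagen regions listed in MEF, 84 were also listed in the intermediate, 12.5% (10.2 to 15.2), 84 in iPSC and 95 in ESC, 14.1% (11.7 to 17.0). At all protein-coding genes 25.1%, 24.6% and 25.8% of MEF regions were. Regions listed in MEF and in neither pluripotent library numbered 563, and the intermediate listed 18 of them, 3.2% (2.03 to 5.0), against 5.66% at all genes. In the fibrillar windows 3 of 179 were and in type IV windows 2 of 87. Median MEF height was 27 for collagen regions in MEF alone and 79 for those in all 4 libraries (27 and 91 at all genes). In the opposite direction, 56 regions were listed in iPSC and ESC and not in MEF, and the intermediate listed 21 of these, 37.5% (26.0 to 50.6), near the 40.7% at all genes. The share of intermediate regions found in no other list, 126 of 241 or 52.3% (46.0 to 58.5), was also near that at all genes, 49.6%. These intervals count regions, which are not independent of each other.

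**Figure D5:**
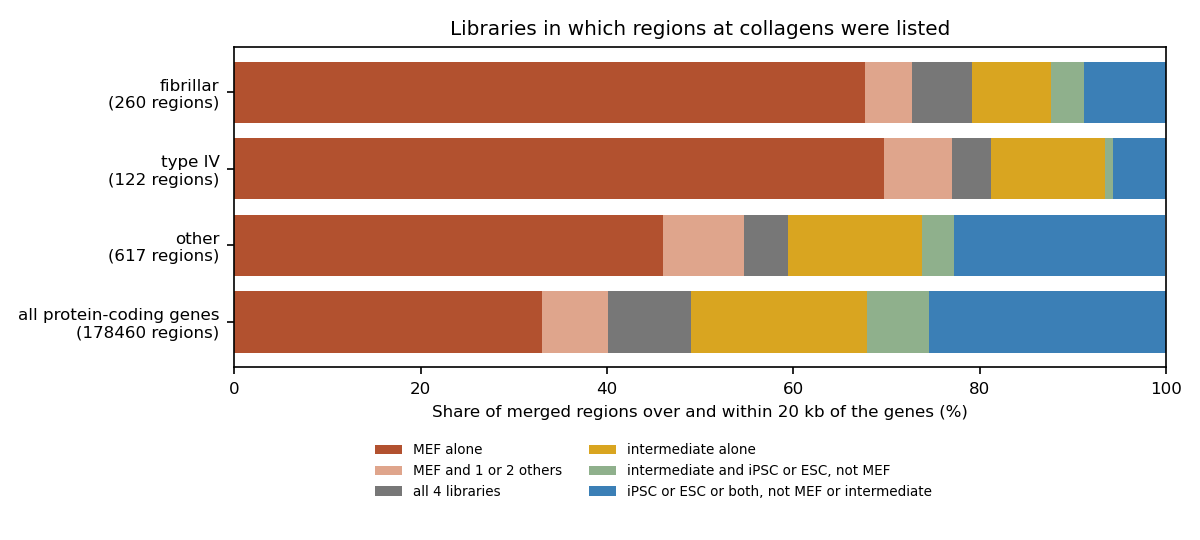
Share of merged regions (x axis, %) by the libraries that listed them, for fibrillar, type IV and other collagens and for all protein-coding genes. Regions in MEF alone make up 67.7% and 69.7% of the fibrillar and type IV bars, 46.0% of the other collagens and 33.0% of all genes.

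The position of peaks within the gene body differed between fibrillar genes. For the 8 fibrillar genes with a known strand, 64 of 118 MEF summits fell in the first 25% of the gene, 54.2% (45.3 to 63.0). For 3 type IV genes the share was 31.0% (22.3 to 41.4), for 22 others 33.3% (27.5 to 39.7) and for all protein-coding genes 41.6%. Col5a1 with 19 of 40 (47.5%) and Col27a1 with 16 of 39 (41%) lay near the share of all genes, and the remaining 6 genes together had 29 of 39 (74.4%), from 1 of 8 at Col24a1 to 7 of 7 at Col11a2. The fibrillar share was 53.8% of 26 summits in intermediate cells (35.5 to 71.2, all genes 43.2%), 62.1% of 29 in iPSC (44.0 to 77.3, all genes 43.8%) and 71.4% of 28 in ESC (52.9 to 84.7, all genes 46.9%). The interval for the intermediate includes the share of all genes. Col1a1 is not among the genes with a strand here.

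The genes that make, export and cross-link collagen had an end peak in most cases in every library. Across 60 such genes and matrix partners in 6 lists, 52 had an end peak in MEF, 48 in intermediate cells, 51 in iPSC and 54 in ESC; 8 lost one in the intermediate and 4 gained one. Over all protein-coding genes 65.5%, 63.3%, 66.1% and 68.1% had one, 7.77% lost one and 5.58% gained one. Prolyl and lysyl hydroxylases, chaperones and glycosyltransferases, which modify and fold the chains, had one in 15 of 17 cases in both MEF and the intermediate, with P4ha2 lost and P4ha3 gained. Of 9 secretion and processing genes 8 had one in MEF and 7 in the intermediate, where the procollagen protease gene Tll1 lost it. The 5 lysyl oxidases, which cross-link fibrils, all had one in MEF, and Loxl1 (height 175 in MEF, 32 in iPSC and 39 in ESC) and Loxl2 (59, 71 and 69) had none in the intermediate. Among 7 fibril partners Tnxb lost and Fmod gained one. Of 15 laminins and other basement membrane partners 13 had one in MEF and 12 in the intermediate, with Lama3, Lamb1 and Lamb3 among those that differed. Of the 7 collagen receptors 6 had one in MEF and kept it in the intermediate, and Itga11 had none in either. By the 2-fold rule 19 of the 60 had fewer peaks in the intermediate than in MEF and 4 more, where the background is 17.3% and 9.33%. The basement membrane proteoglycan Hspg2 (53 in MEF, 11 in intermediate cells, 13 in iPSC and 24 in ESC) and the cross-linker Lox (12, 1, 4 and 3) were among those with fewer, and the laminin Lama1 (3, 18, 16 and 8) among those with more.

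Textbook marker genes served to check the labelled cell types. End peaks were listed at 8 of 8 fibroblast markers in MEF, 4 in intermediate cells, 5 in iPSC and 7 in ESC, and at 1, 5, 8 and 6 of 8 pluripotency markers. Over all protein-coding genes 65.5%, 63.3%, 66.1% and 68.1% had one. With 8 and 7 of 8, the fibroblast list did not set MEF apart from ESC. Pou5f1 and Esrrb had none in ESC or the intermediate, so absence from a list was not read as closed chromatin. Epithelial markers had one in 2, 5, 6 and 6 of 6 cases, cartilage markers in 3, 4, 5 and 4 of 5, endothelial markers in 2, 1, 3 and 2 of 5, myeloid markers in 3, 2, 2 and 2 of 5, muscle markers in 0, 2, 2 and 1 of 3 and parietal endoderm markers in 4, 1, 4 and 4 of 5. The part of other cell types in the collagen peaks was not tested. The lists held 155064 peaks in MEF, 130631 in intermediate cells, 128931 in iPSC and 125858 in ESC on these chromosomes. Read depth is unknown, and more peaks in MEF move with the collagen counts; in lists cut to equal length the collagen sum relative to MEF was 0.466, 0.45 and 0.536 where that of all genes was 1.01, 0.833 and 0.945.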

How the data were processed

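ATAC-seq libraries from 50000 cells each, amplified for 12 PCR cycles per the labels' protocols, gave 1 deposited peak list per population. Bowtie2, Picard, CASAVA 1.8.2, MACS 1.4.2-1 and the build mm10 are named, without roles or settings, in the submitters' processing notes. Peaks were listed per library with start, end, summit and height, per the file headers. Heights are the authors' deposited signal in whole numbers, at least 5 in every list and scaled to nothing that the files state.

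Peaks sharing at least 1 bp with a gene body or 20 kb on either side were counted, and end peaks within 1 kb of a gene end. Each gene counts a shared peak, and totals count it once. Gene positions are those of RefSeq in GRCm38.p6, in a table without strand; strands and start sites for 33 of 42 collagens came from the RefSeq promoter table. Peaks of the 4 lists sharing at least 1 bp were merged into regions. Counting was tested on simulated data. Python 3.11.15, numpy 2.4.6, pandas 2.3.3, scipy 1.17.1 and matplotlib 3.10.9 were used. The members, classes, gene lists, rules and named genes were chosen with earlier results of these data known. Named genes were collagens that lost or gained an end peak against MEF, the 10 with most MEF peaks and the 5 with most in each other library, collagen pairs whose bodies lie within 20 kb, and partner genes whose end peak differed between MEF and the intermediate; further members and the partners Hspg2, Lox and Lama1 are named after their values were seen. A partner gene that this rule names is not reported here. A planned count of protein triplet repeats was not made, since protein sequences were not used here. Bases covered and the background of genes with a mean of at least 5 peaks were added after seeing the data. Wilson intervals cover counting error only, and no test was run with 1 library per group.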

Additional observations from a re-analysis of the deposited data

How the results depend on the processing

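Of 212 values recomputed under alternatives, 159 stayed within 1.5 times. Leaving out heights under 10, using the 5' end only, counting shared peaks at each gene and leaving out Col1a1 moved none beyond that. The counts for the 5' end cover only the 33 collagens with a listed start site, where the reported ones cover 42. Joining sub-peaks gave 386, 194, 203 and 199 collagen peaks in MEF, the intermediate, iPSC and ESC, with densities per 100 kb of 6.6, 3.2, 2.99 and 3.26 for fibrillar, 9.1, 2.98, 2.65 and 2.48 for type IV, and 5.35, 2.95 and 3.11 for other collagens in MEF, the intermediate and ESC. The taller 50% of each list gave 370, 166, 139 and 168 peaks, densities of 7.55, 2.79, 2.79 and 2.65 for fibrillar, 8.11, 2.81, 1.99 and 1.82 for type IV and 4.8, 2.47, 1.97 and 2.7 for other collagens, an end peak at 13 genes in the intermediate, and gains at 5 genes in iPSC and 6 in ESC. The gene body alone gave 197, 202 and 224 peaks for the last 3 libraries, and 50 kb on each side 508, 474 and 543. An end window of 2.5 kb gave 5 gains in intermediate cells, 1 in iPSC and 1 in ESC. With it, collagens with a listed peak near an end numbered 36, 28, 27 and 32, and the intermediate was no longer lowest. Genes called higher than MEF numbered 1 in the intermediate after joining, in the taller 50%, in lists of equal length and with 50 kb. In iPSC they numbered 1 in the taller 50%, in lists of equal length, in the body alone and with 50 kb, and in ESC 0 with 50 kb. Adding types VII, XV, XVII and XVIII to the type IV class gave 17.7, 8.39, 5.56 and 6.5 peaks per 100 kb, moving the intermediate's ratio to MEF from 0.309 to 0.473 (0.432 for the remaining others). No paired analysis was possible because each group has 1 library. Read depth is unknown, so a site without a listed peak is not shown to be closed.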

Other observations

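The type IV genes Col4a5 and Col4a6 lie on chromosome X and were outside the counts above. Col4a5 had 3 listed peaks in MEF, 2 in intermediate cells, 9 in iPSC and 8 in ESC, and Col4a6 had 5, 7, 5 and 5. At Col4a5 the end peak was listed in every library, with heights of 35, 47, 59 and 45. Col4a6 had end peaks of 35 in MEF, 59 in iPSC and 21 in ESC and none in the intermediate. At neither gene did MEF have the most peaks, as it did at the 4 autosomal type IV genes.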
